A study of Homo sapiens with 12 samples.

Results

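The family of miR-130, miR-301 and miR-454 is a set of human microRNAs (miRNAs) that share the same seed, and it was chosen because miR-301a-3p differed most between cells with knocked-down and overexpressed argonaute 2 (AGO2), to see whether its seed relatives did too. Its members were taken as every assay on the miRNA PCR array for miR-130a, miR-130b, miR-301a, miR-301b or miR-454. The array held 4 such assays beside 368 for other miRNAs, namely hsa-miR-301a-3p, hsa-miR-454-3p, hsa-miR-130b-3p and hsa-miR-130a-3p, and miR-301b was not measured here. Because the family was selected on the values of miR-301a-3p after AGO2 knockdown and AGO2 overexpression, those values are given below as a description and support nothing by themselves.

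A miRNA finds its target messenger RNAs mainly through the seed, bases 2 to 8 of the mature strand, so that members of one seed family can share many targets. AGO2 (EIF2C2 in the sample labels) is the argonaute protein that holds the mature miRNA in the silencing complex, protects it, and can cleave well-matched targets. Cereblon (CRBN) is the substrate receptor of an E3 ubiquitin ligase that binds lenalidomide, an immunomodulatory drug used against multiple myeloma.

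The cells were derivatives of the human multiple myeloma line OCI-My5. My5/LV carried the lentiviral vector, had a low level of CRBN and was the drug-resistant line, whereas My5/CRBN carried a lentiviral CRBN cDNA, had a high level of CRBN and was the drug-sensitive line. Each line had 6 arrays, which were untreated cells, cells infected with the lentiviral shRNA AGO2-sh72, cells infected with a lentiviral AGO2 cDNA, cells under lenalidomide (10 µM) for 72 h or for 120 h, and AGO2 cDNA cells under the same dose for 72 h. All cells therefore already carried one lentivirus, and the infected cells carried a second one with puromycin selection, whereas the untreated cells did not. A vector-only control for that second virus was not analysed here, so effects of infection and selection cannot be told apart from those of AGO2. Lenalidomide alone was likewise compared with untreated cells, and no array is labelled as vehicle-treated or matched in time. Effects of vehicle and culture time therefore cannot be told apart from those of the drug. The array carries no assay for AGO2 itself, and its knockdown or overexpression was not checked here.

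Every condition was measured on 1 array, so there are no replicates within a condition, no test was run and no p-value is given. In place of a replicate error, each difference is set against the SD of the log2 changes of the 6 control wells (5 small nucleolar RNAs and RNU6) in the same pair of arrays, which covers the spread between control assays only. One of these wells differed with the constructs, since the RNU6 level, relative to the mean of the 6 wells, was 1.05 to 1.73 on the 6 arrays with AGO2-sh72 or AGO2 cDNA and 0.57 to 0.82 on the 6 others. Its part in the normalized values is given below by the results with RNU6 alone as normalizer. The same shift enters the control-well SD where cells with and without a construct are compared. With AGO2-sh72 against untreated My5/LV, for example, RNU6 changed by 0.98 log2 units and the SD was 0.51. The threshold cycle (Ct) is the PCR cycle at which a well crosses the detection threshold, so a lower Ct stands for more RNA. Normalized level here means the mean Ct of the 6 control wells minus the Ct of the miRNA, in log2 units, and a fold change assumes doubling in each cycle. Of the miRNAs, 324 to 367 came up before cycle 35 on a given array, and 314 did so on all 12 arrays. The mean Ct of the control wells ranged from 18.7 to 21.9. Root mean square differences between duplicate wells were 0.19 cycles (reverse transcription control) and 0.38 cycles (positive PCR control). The blood-cell miRNAs miR-142-3p and miR-142-5p had a Ct of 12.4 to 18.6 and 19.1 to 23.4, and the liver miRNA miR-122-5p one of 30.7 up to the cap of 35. The epithelial miR-141-3p (24.4 to 28.2), miR-200b-3p (24.9 to 29.5) and miR-200a-3p (29.0 to 32.7) and the neuronal miR-124-3p (26.3 to 31.6) also came up before the cap. Among the miRNAs best known from muscle, miR-1 (18.7 to 24.2) and miR-133a-3p (22.2 to 27.7) were nevertheless amplified early, while miR-206 had a Ct of 28.6 to 32.9.

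The mature sequences are shown because the family is defined by them. They come from RefSeq (GRCh38.p14), run 5′ to 3′, and have the seed in capitals. The mature sequence of miR-301b-3p is printed beside miR-301a-3p because it is its closest relative, although it had no assay.
hsa-miR-301a-3p: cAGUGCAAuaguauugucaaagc
hsa-miR-301b-3p: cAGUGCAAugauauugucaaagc
hsa-miR-454-3p: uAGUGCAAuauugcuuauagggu
hsa-miR-130b-3p: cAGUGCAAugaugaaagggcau
These 4 sequences have one seed, AGUGCAA, and they part after it. The strands of miR-301a-3p and miR-301b-3p differ at 2 of 23 positions, whereas miR-301a-3p and miR-454-3p differ at 10 of 23. The strands of miR-301a-3p and miR-130b-3p have their first 9 bases in common. Of all miRNA assays on the array, 330 were matched by name to a RefSeq mature sequence. Among these, only the assays for miR-301a-3p, miR-454-3p and miR-130b-3p had this seed. The assay for miR-130a-3p had no such match, so its sequence is not printed and its seed was not compared here.

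The genes lie at 3 places in the genome (GRCh38.p14). MIR301A (chr17:59151136-59151221) and MIR454 (chr17:59137758-59137872) are both on the minus strand of chromosome 17, within the span of the protein-coding gene SKA2, with 13263 bases between the hairpins. MIR130B (chr22:21653304-21653385) lies on the plus strand of chromosome 22, within the span of the transcribed pseudogene LOC107985532 and 245 bases from MIR301B. MIR130A (chr11:57641198-57641286) is on the plus strand of chromosome 11. The pair measured on chromosome 17 thus shares a host gene, and its members can be read against each other.

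In untreated cells miR-130a-3p crossed the threshold several cycles after the other members. In untreated My5/LV the Ct was 21.0 for miR-301a-3p, 21.5 for miR-454-3p, 22.5 for miR-130b-3p and 28.9 for miR-130a-3p. In untreated My5/CRBN it was 21.5, 22.1, 23.4 and 29.3, in the same order of assays. Primers differ in efficiency between assays, so this order of Ct is not an order of molecules per cell. The 2 untreated lines were close for each member, with log2 differences in normalized level (My5/CRBN minus My5/LV) of 0.12 for miR-301a-3p, 0.04 for miR-454-3p, -0.25 for miR-130b-3p and 0.18 for miR-130a-3p, beside a control-well SD of 0.22.

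Across the 12 arrays miR-301a-3p moved over a wider range than its relatives. Its normalized level in My5/LV was -0.88 in untreated cells, -4.86 with AGO2-sh72, -0.27 with AGO2 cDNA, -1.04 with lenalidomide for 72 h, -0.63 with lenalidomide for 120 h and -0.42 with AGO2 cDNA and lenalidomide. In My5/CRBN the same conditions gave -0.75, -4.01, 0.33, -1.93, -0.77 and -0.62. The AGO2-sh72 arrays were the lowest in both lines and far below all others, the next being lenalidomide for 72 h in My5/CRBN, and the AGO2 cDNA array of My5/CRBN was the highest. Between neighbours in the order of the 12 levels, 4 of 11 gaps were larger than the control-well SD of that pair of arrays. These were the gap below the highest array, the gap between lenalidomide for 72 h in My5/LV and in My5/CRBN, and the gaps above and between the AGO2-sh72 arrays. The arrays from AGO2 cDNA in My5/LV down to lenalidomide for 72 h in My5/LV (-0.27 to -1.04) had no neighbours set apart by that measure.

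The relatives had the same lowest condition, and miR-454-3p and miR-130b-3p had flatter profiles outside it. The normalized level of miR-454-3p in My5/LV was -1.33 in untreated cells, -3.59 with AGO2-sh72, -1.84 with AGO2 cDNA, -1.54 with lenalidomide for 72 h, -0.93 with lenalidomide for 120 h and -1.74 with both AGO2 cDNA and lenalidomide. In My5/CRBN it was -1.29, -3.20, -1.63, -1.50, -1.75 and -1.67. Outside the AGO2-sh72 arrays miR-454-3p thus stayed within 0.91 log2 units, against 2.26 for miR-301a-3p. Only the gaps above and between its AGO2-sh72 arrays were larger than the control-well SD.

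For miR-130b-3p the normalized levels in My5/LV were -2.32 in untreated cells, -4.14 with AGO2-sh72, -2.59 with AGO2 cDNA, -2.87 with lenalidomide for 72 h, -1.63 with lenalidomide for 120 h and -2.41 with AGO2 cDNA and lenalidomide. In My5/CRBN they were -2.57, -3.74, -2.47, -2.73, -2.31 and -2.83. Lenalidomide for 120 h in My5/LV was its highest array, and without the AGO2-sh72 arrays its range was 1.24 log2 units.

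The member with the highest Ct, miR-130a-3p, had normalized levels in My5/LV of -8.70 in untreated cells, -9.92 with AGO2-sh72, -9.02 with AGO2 cDNA, -8.94 with lenalidomide for 72 h, -8.43 with lenalidomide for 120 h and -8.67 with AGO2 cDNA and lenalidomide. In My5/CRBN they were -8.52, -10.36, -9.15, -7.79, -7.16 and -8.18. Its 3 highest arrays were the 3 lenalidomide arrays of My5/CRBN, which was not so for the other members, but the lowest of these 3 (-8.18) and the next array, lenalidomide for 120 h in My5/LV (-8.43), differed by less than their control-well SD of 0.62. Over all 12 arrays the ranges of the members were 5.19 log2 units for miR-301a-3p, 3.20 for miR-130a-3p, 2.66 for miR-454-3p and 2.51 for miR-130b-3p. Without the AGO2-sh72 arrays the range of miR-130a-3p was 2.00, close to the 2.26 of miR-301a-3p.

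**Figure D1:**
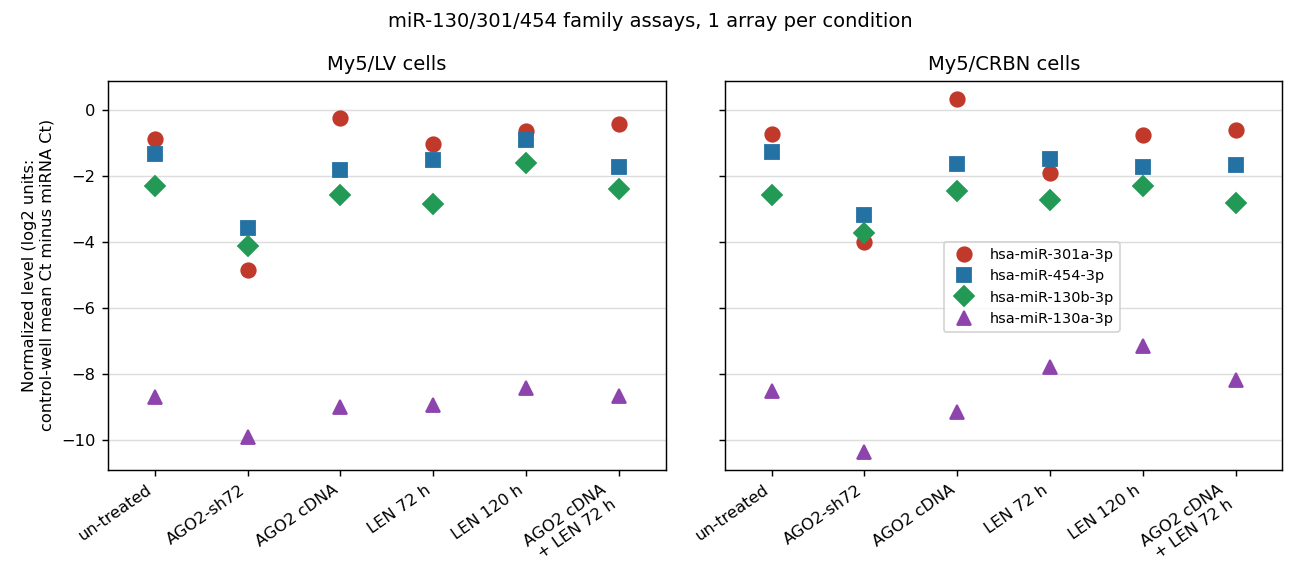
Normalized level (mean Ct of the 6 control wells minus Ct of the miRNA, log2 units) of the 4 family assays on each of the 12 arrays, 1 point per array, with My5/LV and My5/CRBN marked apart. The AGO2-sh72 arrays are the lowest for every member, and miR-301a-3p lies furthest below its other arrays there, at -4.86 in My5/LV and -4.01 in My5/CRBN.

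With AGO2-sh72 the measured level of all 4 members was lower than in untreated cells of both lines, and miR-301a-3p had the largest difference of the 4. In My5/LV its log2 fold change against untreated cells was -3.99, or 0.063 of the untreated level, the lowest of all miRNAs on the array. Its seed relatives changed by -2.26 (miR-454-3p), -1.82 (miR-130b-3p) and -1.21 (miR-130a-3p), beside a control-well SD of 0.51. In that comparison 3 of the 4 members were at least 3 fold lower, where 88 of all miRNAs (23.7%) were, and the median log2 fold change was -2.04 for the members and -0.79 for all miRNAs. The rule used this contrast, so nothing is read from that count.

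In My5/CRBN, AGO2-sh72 gave log2 fold changes of -3.25 for miR-301a-3p, -1.90 for miR-454-3p, -1.17 for miR-130b-3p and -1.84 for miR-130a-3p, beside a control-well SD of 0.30. Here too 3 of 4 members were at least 3 fold lower, beside 48 of all miRNAs (12.9%), with medians of -1.87 for the members and -0.52 for all. The member short of 3 fold was miR-130b-3p in My5/CRBN and miR-130a-3p in My5/LV. The only miRNA with a lower value than miR-301a-3p was miR-155-5p in My5/CRBN (-3.27), an oncogenic miRNA of B cells, and its Ct moved from 31.3 to 34.2, close to the limit of detection.

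A larger share of early-amplified miRNAs than of all miRNAs was at least 3 fold lower, and 3 of the members belong to that class. Among the 113 miRNAs with a Ct under 26 in untreated My5/CRBN, 50 (44.2%) were at least 3 fold lower with AGO2-sh72 in My5/LV, with a median of -1.52. Among the 127 with a Ct under 26 in untreated My5/LV, 26 (20.5%) passed the same limit in My5/CRBN, with a median of -1.13. Within these classes miR-301a-3p had the lowest log2 fold change in both lines, miR-454-3p was 6th from the lowest in My5/LV and 7th in My5/CRBN, and miR-130b-3p was 28th and 57th. The part that abundance played in the members' change was not tested.

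The size of these changes depended on the normalizer. When each array was centred on the mean of its miRNAs in place of the control wells, the median of all miRNAs shifted up by 0.86 in My5/LV and 0.55 in My5/CRBN. The log2 fold change of miR-301a-3p relative to that centre was -3.12 in My5/LV and -2.71 in My5/CRBN, and 1 member in place of 3 stayed at least 3 fold lower in each line. Among all miRNAs, 14 were then at least 3 fold lower and 47 higher in My5/LV, where the control wells gave 88 and 7, and in My5/CRBN 8 were lower and 24 higher, where they gave 48 and 6. With RNU6 alone as normalizer it was -4.97 and -3.70, and all 4 members were at least 3 fold lower in each line. Among all miRNAs, 201 were then at least 3 fold lower and 1 higher in My5/LV, and 104 lower and 3 higher in My5/CRBN.

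With AGO2 cDNA the measured level of miR-301a-3p was above that of untreated cells in both lines, and each relative had a lower value than it. The untreated arrays used here are those of the AGO2-sh72 comparison, so the values are given side by side. Against untreated cells the log2 fold change of miR-301a-3p was 0.61 in My5/LV (control-well SD 0.41) and 1.08 in My5/CRBN (control-well SD 0.56). The relatives had -0.51 (miR-454-3p), -0.27 (miR-130b-3p) and -0.31 (miR-130a-3p) in My5/LV, and -0.34, 0.11 and -0.63 in My5/CRBN. With RNU6 alone as normalizer the value for miR-301a-3p in My5/LV was -0.03, so its direction there rested on the normalizer, whereas in My5/CRBN it stayed between 0.86 and 1.32 under the normalizers tried. No member reached 3 fold in either direction, where 25 of all miRNAs (6.72%) did in My5/LV and 31 (8.33%) did in My5/CRBN.

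Set directly against AGO2-sh72, the AGO2 cDNA arrays gave the widest contrast of miR-301a-3p. Its log2 fold change was 4.60 in My5/LV (24.2 fold, control-well SD 0.23) and 4.34 in My5/CRBN (20.2 fold, control-well SD 0.39), the highest of all miRNAs in both. The other members had 1.75 (miR-454-3p), 1.55 (miR-130b-3p) and 0.90 (miR-130a-3p) in My5/LV, and 1.56, 1.27 and 1.21 in My5/CRBN. Centred on the mean of all miRNAs, the value for miR-130a-3p in My5/LV turned to -0.15. At least 3 fold higher were 2 members in My5/LV, beside 83 of all miRNAs (22.3%), and 1 member in My5/CRBN, beside 38 (10.2%). Just outside the threshold were miR-130b-3p in My5/LV (2.93 fold) and miR-454-3p in My5/CRBN (2.96 fold). These contrasts also entered the choice of the family and carry no further weight.

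Lenalidomide-treated cells with and without the AGO2 cDNA share no array with those contrasts. The family was chosen with earlier results of these data known, so their values are a description too. In My5/CRBN the log2 fold change of miR-301a-3p with AGO2 cDNA under lenalidomide was 1.31 against lenalidomide alone (control-well SD 0.45), 7th from the highest of all miRNAs, while miR-454-3p (-0.17), miR-130b-3p (-0.10) and miR-130a-3p (-0.39) had values within 1 control-well SD of 0. In My5/LV the corresponding value of miR-301a-3p was 0.62, beside a control-well SD of 0.58, and the relatives had -0.20, 0.46 and 0.28. With RNU6 alone as normalizer the My5/LV values of miR-301a-3p, miR-130b-3p and miR-130a-3p turned to -0.44, -0.59 and -0.78. The My5/CRBN value of miR-301a-3p ranged from 0.59 to 1.66 over the normalizers. No member reached 3 fold, where 26 of all miRNAs (6.99%) did in My5/LV and 30 (8.06%) in My5/CRBN.

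**Figure D2:**
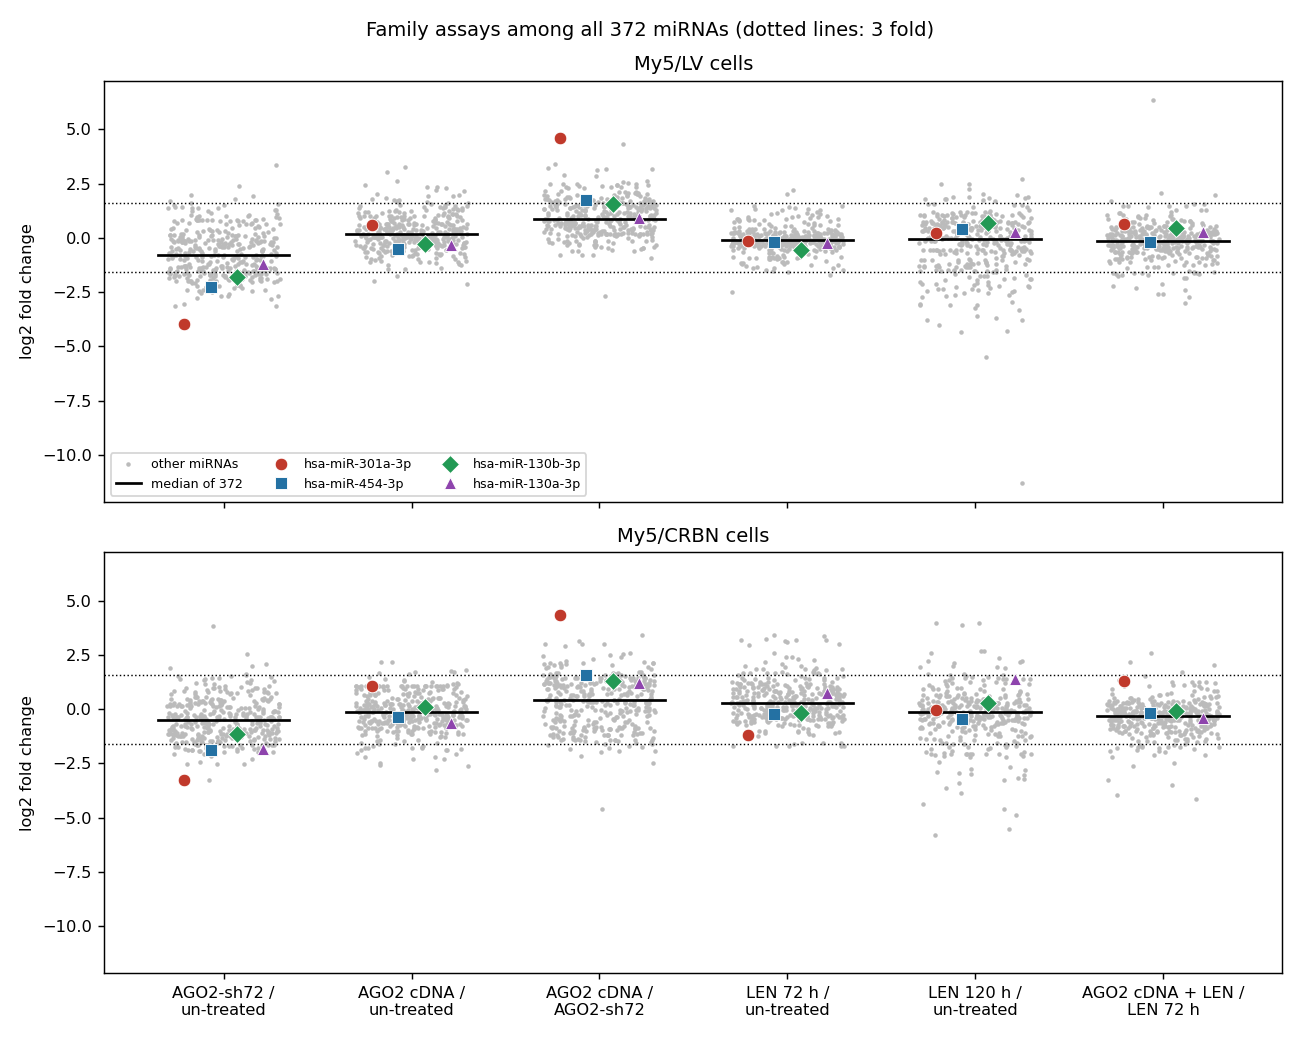
Log2 fold change of the 4 family assays in each comparison, in My5/LV and My5/CRBN, over the values of all other miRNAs in grey, with the median of all miRNAs as a bar, 1 array per condition. With AGO2-sh72, miR-301a-3p lies at -3.99 and -3.25, at or next to the lower end of all miRNAs, and AGO2 cDNA against AGO2-sh72 places it at the upper end, at 4.60 and 4.34.

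The difference between members can be read without any normalizer, as the Ct of miR-301a-3p minus the Ct of a relative on the same array. Against miR-454-3p, from the same host gene, this difference was 1.27 cycles with AGO2-sh72 in My5/LV and 0.81 in My5/CRBN, so miR-301a-3p crossed the threshold after its neighbour. On the 6 arrays with neither construct it was -0.98 to 0.42 with a median of -0.48, and on the 4 arrays with AGO2 cDNA it was -1.96 to -1.05. The 3 classes of arrays did not overlap, though arrays with AGO2-sh72 and with AGO2 cDNA had entered the choice of the family. How many other pairs of miRNAs part the classes was not counted, so this is not read as particular to miR-301a-3p. The nearest arrays with AGO2-sh72 and with neither construct (0.81 and 0.42) differed by less than the largest difference between duplicate positive PCR control wells (0.84 cycles). The nearest arrays of the classes with neither construct and with AGO2 cDNA (-0.98 and -1.05) lay closer together than duplicate reverse transcription control wells (0.19 cycles). The difference against miR-130b-3p gave 0.72 and 0.27 with AGO2-sh72, -1.83 to -0.80 with neither construct and -2.80 to -1.98 with AGO2 cDNA, again without overlap, with the nearest arrays of the last 2 classes (-1.83 and -1.98) again closer than that. Against miR-130a-3p the classes did overlap, at -5.05 and -6.36 with AGO2-sh72, -7.90 to -5.86 with neither and -9.49 to -7.56 with AGO2 cDNA.

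Written as an excess over its relatives, the log2 fold change of miR-301a-3p with AGO2-sh72 was lower by 1.73 than that of miR-454-3p in My5/LV and by 1.35 in My5/CRBN. Of the AGO2 cDNA arrays, those with lenalidomide are not part of the AGO2 cDNA against AGO2-sh72 contrasts. As the family was chosen with earlier results of these data known, these arrays are not taken as independent of the choice. Against lenalidomide for 72 h alone, their excess of miR-301a-3p over miR-454-3p was 0.81 in My5/LV and 1.47 in My5/CRBN, and over miR-130b-3p it was 0.15 and 1.41. In My5/CRBN the Ct difference to miR-454-3p was 0.42 on that control array, -0.54 in untreated cells and -1.05 with AGO2 cDNA and lenalidomide. The difference to miR-130b-3p was -0.80, -1.82 and -2.21, in the same order. Against untreated cells the My5/CRBN excess would thus be smaller. The excess over miR-130b-3p in My5/LV was smaller than the 0.38 cycles between duplicate positive control wells.

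**Figure D3:**
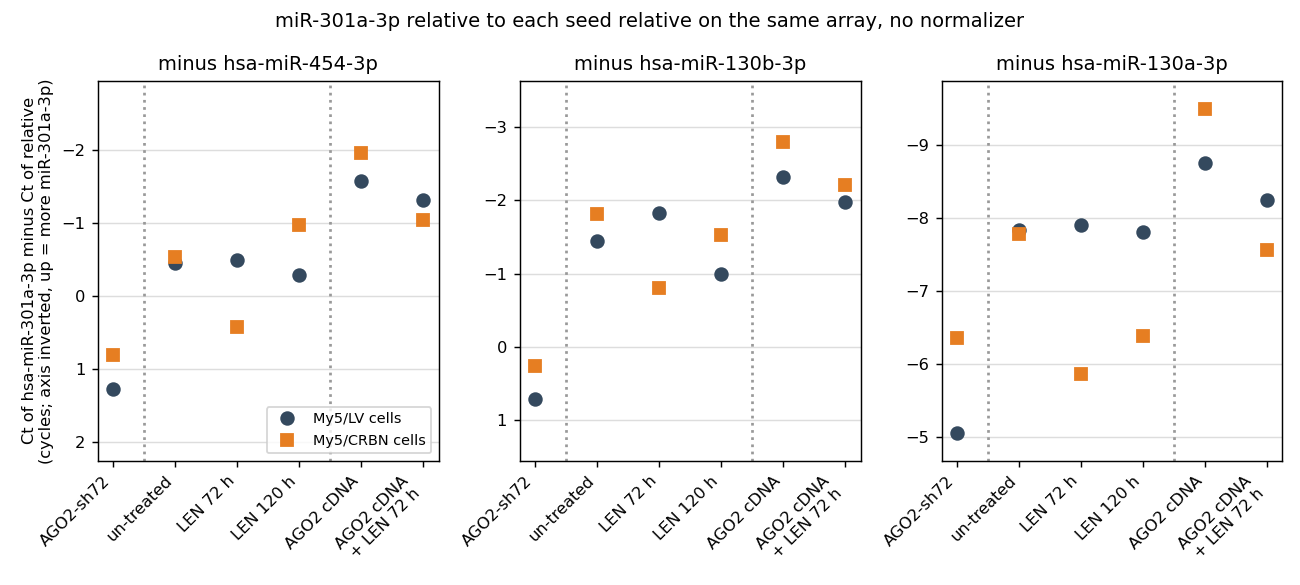
Ct of miR-301a-3p minus the Ct of each relative on the same array (cycles, no normalizer), for arrays with AGO2-sh72, with neither construct and with AGO2 cDNA, 1 point per array (LEN, lenalidomide), with the y axes inverted and of equal span. Against miR-454-3p and miR-130b-3p the 3 classes do not overlap, with neither construct and AGO2 cDNA nearly touching, whereas against miR-130a-3p they do. Against miR-454-3p, AGO2-sh72 in My5/CRBN (0.81) also lies near lenalidomide for 72 h in My5/CRBN (0.42). Other pairs of miRNAs were not counted.

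With lenalidomide alone no member passed 3 fold, and the members did not share a direction in My5/CRBN. After 72 h in My5/LV all 4 log2 fold changes were between -0.55 (miR-130b-3p) and -0.16 (miR-301a-3p), beside a control-well SD of 0.18, and 4 of all miRNAs (1.08%) passed 3 fold in either direction. After 72 h in My5/CRBN miR-301a-3p had -1.18, 12th from the lowest of all, and miR-130a-3p had 0.73, beside a control-well SD of 0.22. The other members, miR-454-3p (-0.21) and miR-130b-3p (-0.16), lay within 1 control-well SD of 0. In this comparison 43 of all miRNAs (11.6%) passed 3 fold and no member did. The level of miR-301a-3p in this array is also the control of the AGO2 cDNA comparison under lenalidomide in My5/CRBN, so the value of -1.18 here and the value of 1.31 there share an array.

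After 120 h the low value of miR-301a-3p in My5/CRBN was no longer seen, at -0.02, with -0.46 for miR-454-3p and 0.27 for miR-130b-3p beside a control-well SD of 0.22. The highest was miR-130a-3p, at 1.37, and its Ct was 25.9 against 29.3 in untreated cells. In My5/LV the 120 h values were 0.24 (miR-301a-3p), 0.40 (miR-454-3p), 0.69 (miR-130b-3p) and 0.27 (miR-130a-3p), beside a control-well SD of 0.41. No member passed 3 fold at 120 h, where 69 of all miRNAs (18.5%) did in each line. Centred on the mean of all miRNAs, miR-130a-3p in My5/CRBN did pass, with a log2 fold change of 1.60, where 40 of all miRNAs were lower and 31 higher.

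Between the lines under the same treatment, miR-130a-3p was higher in My5/CRBN by 1.15 log2 units at 72 h of lenalidomide (control-well SD 0.32) and by 1.27 at 120 h, while miR-301a-3p had -0.89 at 72 h and -0.14 at 120 h. At 120 h miR-454-3p (-0.82) and miR-130b-3p (-0.68) were lower in My5/CRBN by more than the control-well SD of 0.43, and at 72 h they had 0.03 and 0.14. On the AGO2-sh72 arrays the level of miR-301a-3p was higher in My5/CRBN than in My5/LV by 0.86, and those of miR-454-3p and miR-130b-3p were each higher by 0.40, while miR-130a-3p had -0.44.

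The members' profiles were alike mainly through the AGO2-sh72 arrays. Over the 12 arrays, which share their cell lines and control wells, Pearson's r of the normalized levels was 0.87 between miR-301a-3p and miR-454-3p, 0.86 between miR-301a-3p and miR-130b-3p, and 0.92 between miR-454-3p and miR-130b-3p. Over the 10 arrays without AGO2-sh72 these became -0.23, 0.23 and 0.62. For miR-301a-3p and miR-130a-3p r was 0.58 over 12 arrays and -0.53 over 10. The median r of miR-301a-3p with the 313 other miRNAs measured on every array was 0.42.

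The assays most like miR-301a-3p were not its seed relatives. The highest r over the 12 arrays was with miR-107 (0.96), then miR-744-5p (0.95), miR-199b-5p (0.95), miR-98-5p (0.94) and miR-191-5p (0.94), while miR-454-3p took place 27, miR-130b-3p place 28 and miR-130a-3p place 120 of 313. Without the AGO2-sh72 arrays miR-107 still held place 1, at 0.82, and the family members were at places 168, 67 and 250. In My5/LV miR-107 had a log2 fold change of -2.21 with AGO2-sh72 and 1.01 with AGO2 cDNA, and in My5/CRBN it had -2.16 and 0.83. The let-7 family member miR-98-5p had -2.82 and -2.06 with AGO2-sh72 and 1.49 and 0.95 with AGO2 cDNA. The other 3 miRNAs were lower with AGO2-sh72 too, with values between -2.70 and -1.25, but with AGO2 cDNA miR-199b-5p (-0.06 and 0.27) and miR-191-5p (0.01 and 0.24) had values near 0.

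**Figure D4:**
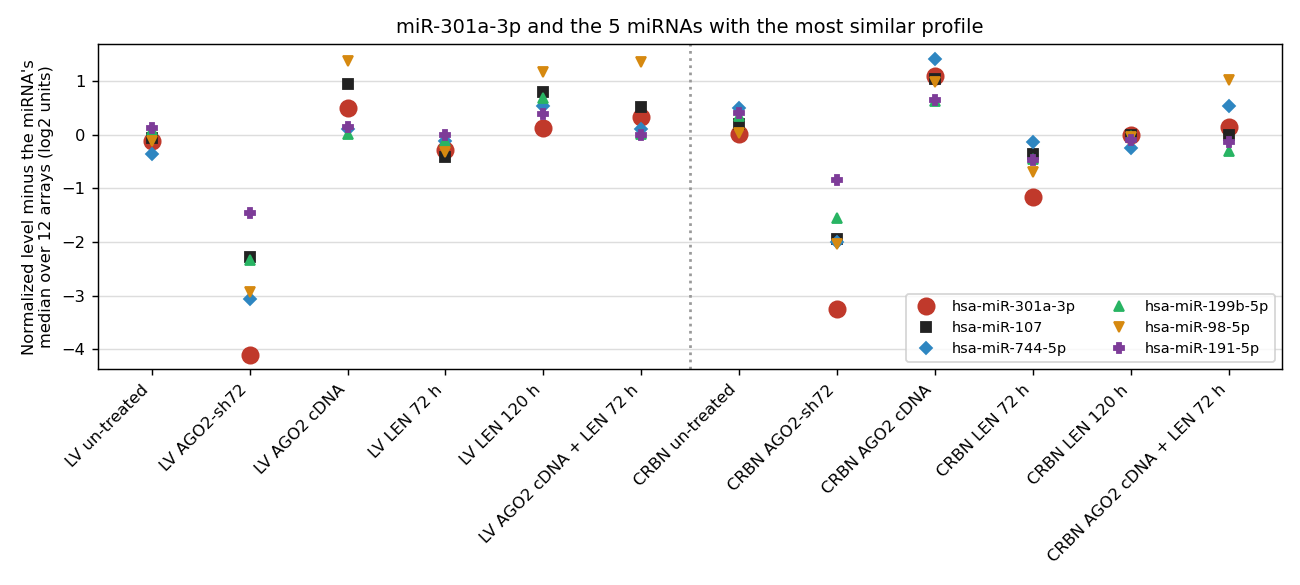
Normalized level minus the miRNA's own median over the 12 arrays (log2 units), for miR-301a-3p and the 5 miRNAs with the highest Pearson's r to it, 1 point per array. All 6 are lowest on the AGO2-sh72 arrays, and miR-107 has the highest r with miR-301a-3p (0.96), which takes no account of the size of the changes.

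The relatives had different nearest profiles. For miR-454-3p they were let-7d-5p (0.97), miR-374a-5p (0.96) and miR-30e-5p (0.96), and for miR-130b-3p they were miR-103a-3p (0.98), miR-25-3p (0.97) and miR-652-3p (0.96). For miR-130a-3p they were miR-499a-5p (0.92), miR-28-5p (0.91) and miR-101-3p (0.91). No member of the family was among the 3 nearest of another member, and miR-130b-3p took place 16 of 313 for miR-454-3p, which in turn took place 20 for miR-130b-3p.

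A further 5 miRNAs on the array have a seed shifted by 1 base against that of the family, and 1 of each kind is printed to show the shift, with bases 2 to 8 in capitals.
hsa-miR-19a-3p: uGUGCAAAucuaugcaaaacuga
hsa-miR-148b-3p: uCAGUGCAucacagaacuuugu
The letters GUGCAA are common to the family's seed and to that of miR-19, from the oncogenic miR-17-92 cluster, and AGUGCA to the family's and to that of miR-148. With AGO2-sh72 in My5/LV, log2 fold changes were -1.51 for miR-19a-3p, -1.64 for miR-19b-3p, -1.74 for miR-148a-3p, -2.29 for miR-148b-3p and -1.89 for miR-152-3p. In My5/CRBN they were -1.64, -1.68, -0.89, -1.81 and -0.47. All 5 were lower, and none reached the value of miR-301a-3p in either line. With AGO2 cDNA in My5/LV the miR-19 assays were near 0 (0.01 and -0.21) while miR-148a-3p, miR-148b-3p and miR-152-3p had -0.96, -1.11 and -1.20, and in My5/CRBN the 5 assays had -0.32, -0.26, -0.64, -1.70 and 0.16. None of the 5 thus had a value with AGO2 cDNA as high as that of miR-301a-3p. Since miR-301a-3p was chosen on the AGO2-sh72 and AGO2 cDNA values, its place beyond these 5 carries no weight.

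The base at the 5′ end, which argonaute proteins hold in a pocket, differs within the family: miR-301a-3p and miR-130b-3p begin with C and miR-454-3p with U. Of the 330 matched miRNAs, the 144 that begin with U had a median log2 fold change with AGO2-sh72 that was -1.32 in My5/LV and -0.85 in My5/CRBN, and 46 and 25 of them were at least 3 fold lower. The 67 that begin with C had -0.45 and -0.56, and 10 and 6 of them were at least 3 fold lower. In both lines miR-301a-3p, miR-130b-3p and miR-454-3p were each below the median of the miRNAs with the same first base. The choice of the family used the AGO2-sh72 values, so nothing is read from this, and a part of the first base was not tested.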

How the data were processed

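Total RNA of 12 OCI-My5 derived cultures, 1 per condition, was turned into cDNA (miScript II kit) and run on miScript miRNA PCR arrays with SYBR Green. The authors deposited raw Ct values, treated here as a score, with no normalization applied, and their own table of fold changes between arrays, which was not used. Ct values over 35 were set to 35, and each array's mean Ct over 6 control wells (RNU6-2, SNORD96A, SNORD95, SNORD72, SNORD68 and SNORD61) was subtracted, after which differences between arrays gave log2 fold changes. Called means at least 3 fold, the threshold the study used. Samples were grouped by their labels. Named miRNAs were the 4 family assays, those sharing their seed or having one shifted by 1 base, any with a lower value than miR-301a-3p with AGO2-sh72, the 5 most like miR-301a-3p and the 3 most like each relative by Pearson's r. Members, lists and alternatives were chosen with earlier results of these data known. Sequences were matched to RefSeq by miRNA name. Alternatives were another normalizer (mean of all miRNAs, RNU6 alone, 5 SNORD wells, reverse transcription controls), a Ct cap of 32, and correlations without AGO2-sh72. The mean of all miRNAs was taken over the 314 with a Ct under 35 on every array. The fold-change code was tested on simulated data, where 59 of 60 assays changed by 4 fold were recovered and 0 of 312 unchanged assays were called. The simulation had a well SD of 0.15 and no wells near the Ct cap, so it checks the code and gives no error rates for these arrays. Python 3.11.15, pandas 2.3.3, NumPy 2.4.6 and Matplotlib 3.10.9 were used. With 1 array per condition the number of arrays limits the precision. Control-well and duplicate-well spreads do not measure the spread between replicate cultures, and the control-well SD also holds the shift of RNU6 with the constructs.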

Additional observations from a re-analysis of the deposited data

Results flagged for a closer look

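With lenalidomide for 72 h, miR-130a-3p moved in opposite directions in the 2 lines. Its log2 fold change against untreated cells was -0.24 in My5/LV and 0.73 in My5/CRBN, a difference of 0.97. The median of all miRNAs had the same signs, at -0.12 and 0.30, and centred on the mean of all miRNAs the values of miR-130a-3p were -0.14 and 0.38. Each value rests on 1 array against 1 array, and the difference was not tested.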

How the results depend on the processing

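Of 80 member log2 fold changes, those that moved by more than the control-well SD numbered 40 with RNU6 alone, 32 with the mean of all miRNAs, 16 with the reverse transcription controls, and 0 with the 5 SNORD wells or a Ct cap of 32. The counts of 0 could not have come out otherwise and carry no weight. No member had a Ct above 31.0, so the lower cap changed no member. Leaving out RNU6 shifts each value by less than an SD that itself includes RNU6. With the mean of all miRNAs, members at least 3 fold lower with AGO2-sh72 numbered 1 in place of 3 in each line, and with RNU6 alone 4 in each. Of all miRNAs, 14 in My5/LV and 8 in My5/CRBN were lower with the former, and 201 and 104 with RNU6 alone. Members at least 3 fold higher with AGO2 cDNA than with AGO2-sh72 in My5/LV numbered 1 in place of 2 with the mean of all miRNAs and with the reverse transcription controls, and 3 with RNU6 alone. Of all miRNAs, 9, 50 and 136 were then higher, in the same order of normalizers, in place of 83. In My5/CRBN the members at least 3 fold higher numbered 2 in place of 1 with RNU6 alone and with the reverse transcription controls. Of all miRNAs, 78 and 89 were then higher, in place of 38. In My5/CRBN 1 member in place of 0 passed 3 fold with the mean of all miRNAs, both at 120 h of lenalidomide (miR-130a-3p) and for AGO2 cDNA with lenalidomide against lenalidomide (miR-301a-3p). Of all miRNAs, 40 were then lower and 31 higher at 120 h, and 11 lower and 11 higher in the AGO2 cDNA comparison. Without the AGO2-sh72 arrays, Pearson's r of miR-301a-3p fell to -0.23 with miR-454-3p, 0.23 with miR-130b-3p and -0.53 with miR-130a-3p. Over all 12 arrays, the mean of all miRNAs as normalizer gave r of 0.73 with miR-130b-3p and 0.40 with miR-130a-3p. The causes were not tested. No test, paired or not, was run: each condition has 1 array, the labels give no replicate numbers, and the lines, which share their treatments, were not taken as replicates of each other. No replicate could be left out. Wells near the Ct cap of 35 carry little signal.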
